A study of Homo sapiens with 20 samples.

Results

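The Frizzled genes FZD1 to FZD10 were followed over 18 days of neuronal differentiation of human neural progenitor cells. Members were taken by gene symbol, as the protein-coding gene records of the deposited tables that carry 1 of the 10 symbols, keeping for each symbol the record with the highest mean. All 10 symbols had a single coding record and none was merged with another gene, so the family made up 10 of 20237 coding records and of 38369 records in all. The cells were derived from H1, a widely used line of human embryonic stem cells, and their polyadenylated RNA was sequenced in 20 cultures: 3 cultures on each of days 0, 1, 2, 4, 11 and 18, and 2 on day 5. Day 0 was the progenitor state in a proliferation medium with FGF. From then on FGF was withdrawn and BDNF, a neurotrophic factor, was added, and no other genotype, line or treatment was compared. Cells for days 5, 11 and 18 had been moved on day 4 from Matrigel to a poly-D-lysine and laminin surface, so in these samples time after day 4 and the new surface cannot be told apart.

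Frizzled proteins are receptors with 7 membrane-spanning helices and an extracellular cysteine-rich domain that binds lipid-modified Wnt ligands. With LRP5 or LRP6 as co-receptor they act through Dishevelled to stabilise beta-catenin, which then activates genes together with TCF/LEF factors. With other partners they organise planar cell polarity, the alignment of cells within a sheet, and in the developing nervous system they take part in regional patterning, progenitor growth and axon guidance. By sequence the family falls into 4 subfamilies, FZD1/2/7, FZD5/8, FZD4/9/10 and FZD3/6.

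Expression was deposited as FPKM, sequenced fragments corrected for the length of the transcript and the size of the library, with 1 value per record and day that pools all cultures of that day. There was therefore no spread between cultures to set a difference against. All differences between days or genes below are descriptions of pooled values, none was tested here, and neighbours in any order of levels could not be separated by their error. A difference was counted when log2(FPKM + 0.1) moved by at least 1, that is 2-fold, and each count of members is set beside the share of the 11793 expressed coding records, those whose mean over the days reached 1 FPKM, that passed the same fold. All 10 Frizzled records were among them.

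The sequences of the coding regions bear on how well reads of family members can be told apart. Within subfamilies the aligned coding bases were between 65.0% and 82.6% identical over 8 pairs, and over the 37 pairs from different subfamilies between 55.0% and 72.8%. The longest stretch without a mismatch was 81 bases, shared by FZD1 and FZD2, followed by 69 bases between FZD2 and FZD7 and 52 bases between FZD2 and FZD5. All were shorter than a read of the study. FZD5 and FZD8, the 2 members of a subfamily whose courses are set side by side below, shared a run of 51 bases in the same part of their coding sequences, from base 298 in FZD5 and from base 304 in FZD8. It lies at chr2:208633116-208633166 and chr10:35930004-35930054 of hg19, on the minus strand in both, and is printed here because it is the longest stretch in which these coding sequences are alike.
FZD5 and FZD8 shared coding run: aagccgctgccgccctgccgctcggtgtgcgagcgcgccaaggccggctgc

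Promoter sequences from 250 bases before to 50 bases after the start were taken from RefSeq, whose table has entries for 5 members, FZD1, FZD4, FZD5, FZD8 and FZD9. Those of FZD4 and FZD5, whose levels moved alike over the days, and of FZD8, the flat relative of FZD5, are shown 5′ to 3′ with hg19 coordinates found by exact match. Capitals mark the GC box (GGGCGG), the CCAAT box (CCAAT) and the TATA box (TATAAA) on either strand.
FZD4 promoter, chr11:86666388-86666687, - strand: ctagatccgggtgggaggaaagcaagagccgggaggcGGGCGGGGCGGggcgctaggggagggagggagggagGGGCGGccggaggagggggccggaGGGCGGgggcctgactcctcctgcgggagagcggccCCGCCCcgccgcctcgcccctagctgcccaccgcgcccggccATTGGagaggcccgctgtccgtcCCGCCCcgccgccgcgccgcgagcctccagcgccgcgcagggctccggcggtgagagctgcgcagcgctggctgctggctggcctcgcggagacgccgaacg
FZD5 promoter, chr2:208634581-208634880, - strand: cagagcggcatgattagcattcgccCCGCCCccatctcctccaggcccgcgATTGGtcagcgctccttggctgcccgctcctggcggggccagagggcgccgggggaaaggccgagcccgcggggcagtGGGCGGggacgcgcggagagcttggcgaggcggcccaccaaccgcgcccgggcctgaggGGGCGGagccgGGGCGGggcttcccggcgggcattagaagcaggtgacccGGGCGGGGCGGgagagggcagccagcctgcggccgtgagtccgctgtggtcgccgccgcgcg
FZD8 promoter, chr10:35931175-35931474, - strand: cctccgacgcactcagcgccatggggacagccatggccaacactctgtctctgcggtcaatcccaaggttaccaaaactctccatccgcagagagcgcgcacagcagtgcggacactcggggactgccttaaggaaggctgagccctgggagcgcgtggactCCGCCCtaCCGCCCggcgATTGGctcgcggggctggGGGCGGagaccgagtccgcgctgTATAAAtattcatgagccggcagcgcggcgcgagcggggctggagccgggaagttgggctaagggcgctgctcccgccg
All 5 promoters held a GC box, against 45.0% of all 35116 promoters of this length, with 6 copies in FZD4, 6 in FZD5, 3 in FZD8, 2 in FZD9 and 1 in FZD1. Overlapping copies were counted separately. A CCAAT box was found in 4 of the 5, against 34.6% of all promoters, in each case as its reverse complement ATTGG. The TATA box was found in FZD8 and in 11.5% of all promoters, and the TCF/LEF motif CTTTGAT in none of the 5 and in 2.62% of all. The GC content was 79.7% in FZD4, 77.0% in FZD5, 73.7% in FZD9, 67.0% in FZD8 and 65.7% in FZD1, above the median of 58.7% over all promoters. The deposited records of FZD8 and FZD5 began 862 and 487 bases downstream of the RefSeq start, those of FZD1, FZD4 and FZD9 within 35 bases of it.

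Across the course 3 receptors, FZD2, FZD3 and FZD7, carried most of the Frizzled RNA. The 3 highest receptors of each day held between 65.4% of the summed Frizzled FPKM on day 0 and 74.6% on day 4. FZD2 was the highest on days 0, 1 and 2, FZD3 on days 4, 5 and 18, and FZD7 on day 11. The order of the middle of the family also moved. FZD6 stood above FZD10 on days 0 to 2 and below it from day 4 on. FZD4, FZD5, FZD8 and FZD9 were below 5 FPKM on every day.

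**Figure D1:**
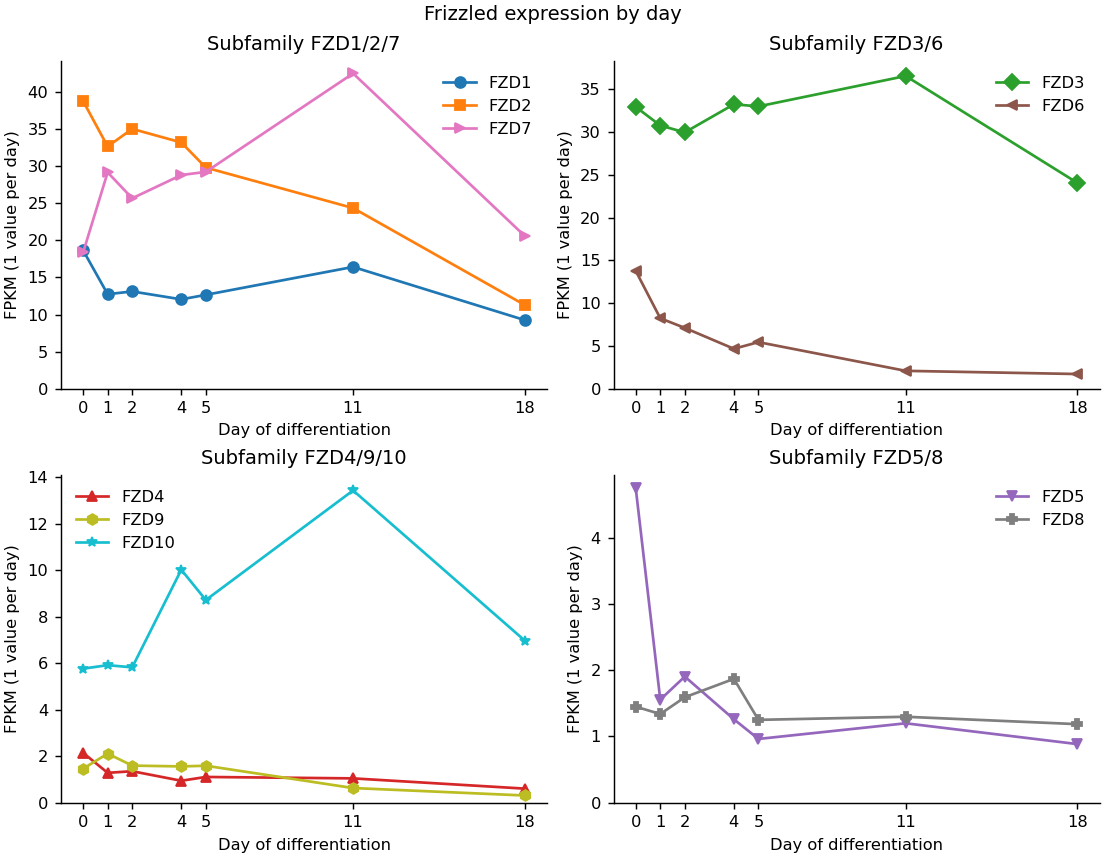
FPKM of each Frizzled gene (vertical axis, separate scale per panel) by day of differentiation (horizontal axis), 1 panel per subfamily and 1 point per day, with no error bars because only 1 pooled value exists. FZD7 and FZD10 are highest on day 11, while FZD6 is highest on day 0 and lowest on day 18.

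The FZD1/2/7 subfamily, receptors that can act in both beta-catenin and polarity signalling, held 54.9% of the Frizzled FPKM on day 0 and 53.5% on day 18, but its members took different courses. FZD2, an intronless gene at chr17:42634925-42636907 on the plus strand, measured 38.8, 32.7, 35.0, 33.2, 29.8, 24.4 and 11.3 FPKM on the 7 sampled days in order. It was 3.44-fold lower on day 18 than on day 0, and 2.16-fold lower than on day 11. FZD7, also intronless, at chr2:202899310-202903160 on the plus strand, measured 18.4, 29.2, 25.7, 28.8, 29.2, 42.5 and 20.6 FPKM on the same days. It was lowest on day 0, 1.59-fold higher on day 1 and highest on day 11, and day 18 lay 1.12-fold above day 0. FZD7 thus stood below FZD2 up to day 5 and above it on days 11 and 18. FZD1, at chr7:90893783-90898131 on the plus strand with a single exon, measured 18.7, 12.7, 13.1, 12.0, 12.7, 16.4 and 9.24 FPKM. Its highest day was day 0, its values from day 1 to day 5 stayed between 12.0 and 13.1, and day 18 was 2.02-fold below day 0, just past the 2-fold threshold.

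FZD5 and FZD8, closely related receptors with known roles in the eye field and forebrain, were both low. FZD5, at chr2:208627312-208634143 on the minus strand with 2 exons, measured 4.75, 1.56, 1.90, 1.26, 0.962, 1.20 and 0.885 FPKM. Day 0 stood apart from all later days, none of which exceeded 1.90, and the step from day 0 to day 1 alone was 3.05-fold lower. FZD8, at chr10:35927177-35930362 on the minus strand with a single exon, measured 1.45, 1.34, 1.59, 1.87, 1.25, 1.30 and 1.19 FPKM. Its highest and lowest days differed by 1.58-fold, against 5.37-fold for FZD5. FZD5 was the higher of the pair on days 0 to 2 and FZD8 on days 4 to 18.

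In the FZD4/9/10 subfamily 2 members ended low and 1 had a peak late in the course. FZD10, at chr12:130647032-130650284 on the plus strand with a single exon, measured 5.77, 5.92, 5.83, 10.0, 8.72, 13.4 and 6.97 FPKM. The first 3 days were nearly level, day 4 was 1.72-fold above day 2, and day 11 was the highest. FZD9, an intronless gene in the interval deleted in Williams syndrome, at chr7:72848109-72850449 on the plus strand, measured 1.47, 2.11, 1.60, 1.56, 1.59, 0.631 and 0.311 FPKM. It was between 1.47 and 2.11 up to day 5 and lower on days 11 and 18, ending 4.72-fold below day 0. FZD4, which besides Wnt ligands binds Norrin with the help of TSPAN12 in retinal vessels, lies at chr11:86656722-86666433 on the minus strand with 2 exons. It measured 2.15, 1.29, 1.36, 0.946, 1.11, 1.05 and 0.606 FPKM, was highest on day 0 and was 3.54-fold lower on day 18.

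FZD3 and FZD6, the members best known from planar cell polarity and axon guidance, had the smallest and the largest ratio between highest and lowest day in the family. FZD3, at chr8:28351773-28421959 on the plus strand with 2 deposited isoforms, measured 32.9, 30.8, 30.0, 33.3, 33.0, 36.6 and 24.1 FPKM. Its highest and lowest days differed by 1.52-fold. FZD6, at chr8:104310667-104345092 on the plus strand with 6 deposited isoforms, measured 13.8, 8.23, 7.10, 4.66, 5.44, 2.08 and 1.71 FPKM. It was lower than the day before on every sampled day but day 5, and its values on days 0 and 18, its highest and lowest, differed by 8.06-fold. FZD3 was 2.39-fold above FZD6 on day 0 and 14.1-fold above it on day 18.

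From day 0 to day 18, 6 of the 10 genes were at least 2-fold lower (FZD1, FZD2, FZD4, FZD5, FZD6 and FZD9) and none was at least 2-fold higher. Among all expressed coding records, 29.9% were at least 2-fold lower and 7.57% at least 2-fold higher. The median log2 change was -1.34 over the 10 members and -0.60 over all these records. The deposited FPKM of most genes was thus lower on day 18, and the sum over all records went from 413978 on day 0 to 251156 on day 18. After subtracting the median, 5 members remained at least 2-fold lower, FZD6 at -2.34 on the log2 scale, FZD5 at -1.70, FZD9 at -1.33, FZD2 at -1.17 and FZD4 at -1.07, and none was 2-fold higher, against 12.1% and 14.7% of all records. FZD1 was then at -0.41. FZD10 and FZD7 lay above zero on both scales, at 0.27 and 0.16 as deposited and at 0.87 and 0.76 after subtracting the median. FZD3 and FZD8 changed sign between the scales, from -0.45 to 0.15 and from -0.27 to 0.33.

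**Figure D2:**
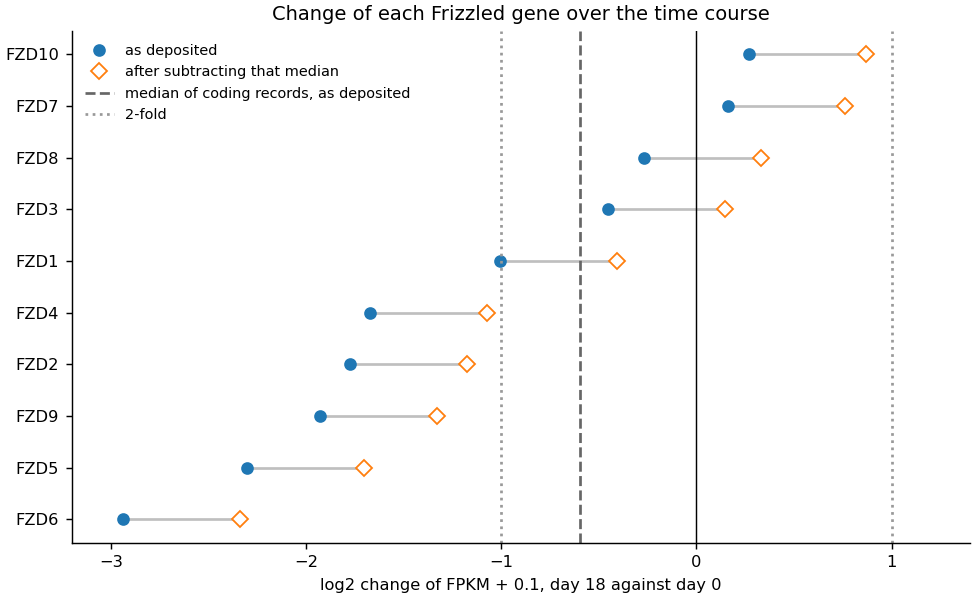
Log2 change of FPKM + 0.1 from day 0 to day 18 (horizontal axis) for each Frizzled gene (vertical axis), as deposited (circles) and after subtracting the median of the expressed coding records (diamonds), with dotted lines at 2-fold. FZD6, FZD5, FZD9, FZD2 and FZD4 lie beyond 2-fold lower on both scales, and FZD3 and FZD8 lie on different sides of 0 on the 2 scales.

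The rank of each gene among the 11793 coding records of the same day does not depend on the scaling between days. FZD6 went from percentile 54.5 on day 0 to 9.84 on day 18, FZD2 from 83.5 to 62.0 and FZD5 from 23.7 to 3.62. FZD7 moved the other way, from percentile 63.8 on day 0 to 90.1 on day 11 and 81.0 on day 18, and FZD10 from 28.4 to 62.0 and then 45.0. FZD3 stayed between percentiles 80.0 and 88.1 throughout. FZD8 stayed at or below percentile 7.76 on all days, and FZD9 ended at 0.627.

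**Figure D3:**
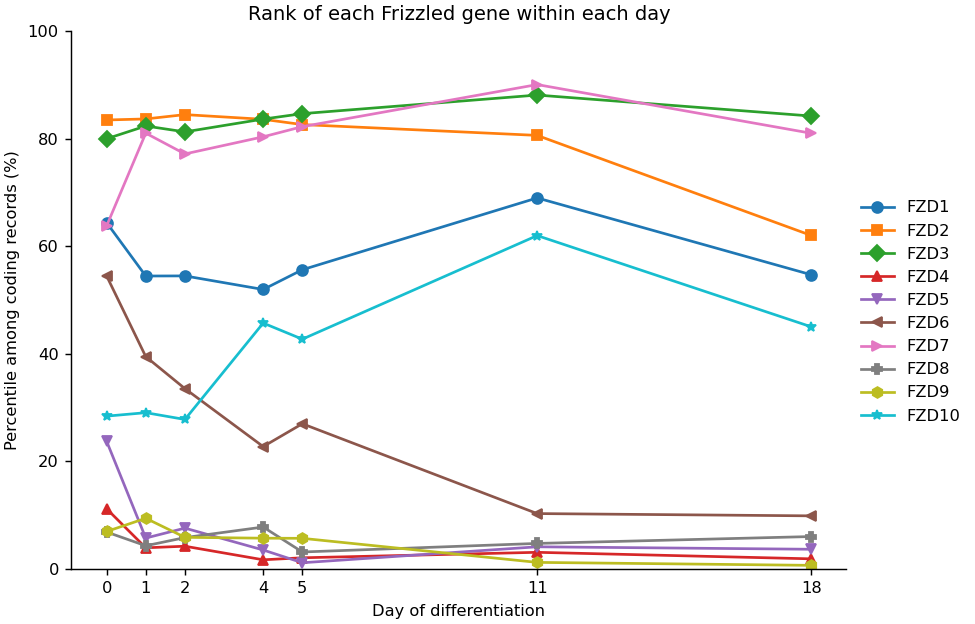
Percentile of each Frizzled gene among 11793 coding records of the same day (vertical axis, 100 is the highest) by day of differentiation (horizontal axis). FZD7 and FZD10 climb to day 11, FZD6 descends from 54.5 to 9.84, and FZD4, FZD5, FZD8 and FZD9 lie at or below 23.7 on all days.

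By step, few members passed 2-fold. From day 0 to day 1 FZD5 was the only member at least 2-fold lower, against 3.09% of all records, and none was at least 2-fold higher, against 3.6%. No member passed 2-fold in either direction from day 1 to day 2 (0.136% of records higher, 0.144% lower), from day 2 to day 4 (0.127% and 0.653%) or from day 4 to day 5 (0.254% and 0.0509%), the step that spans the replating. From day 5 to day 11 FZD6 was 2.61-fold and FZD9 2.52-fold lower, against 4.24% of records, and none was at least 2-fold higher, against 1.8%. FZD7, FZD10 and FZD1 were 1.45-fold, 1.54-fold and 1.30-fold higher in that step. From day 11 to day 18 all 10 values were lower, FZD2 by 2.16-fold and FZD7 by 2.07-fold. Of all records 3.72% were at least 2-fold lower and 0.839% at least 2-fold higher. FZD9 was 2.03-fold lower in FPKM, but with the added 0.1 it came to -0.83 on the log2 scale and was not counted. In that last step the median of all records was -0.28 on the log2 scale, and after subtracting it FZD2 stood at -0.83 and FZD7 at -0.77, so no member remained past 2-fold, and FZD6 and FZD8 lay above zero.

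The summed FPKM of the 10 genes was 138.1, 125.8, 123.2, 127.6, 123.8, 139.6 and 76.8 on the 7 days in order. It lay between 123.2 and 139.6 up to day 11 and was lowest on day 18, with a log2 ratio of -0.85 between days 18 and 0, or -0.25 after subtracting the median. Within the sum, FZD2 went from 28.1% to 14.7% between days 0 and 18 and FZD6 from 9.97% to 2.22%. Over the same days FZD7 went from 13.3% to 26.8%, FZD3 from 23.9% to 31.3% and FZD10 from 4.18% to 9.08%. These shares compare levels per length within a day and are not touched by the scaling between days.

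**Figure D4:**
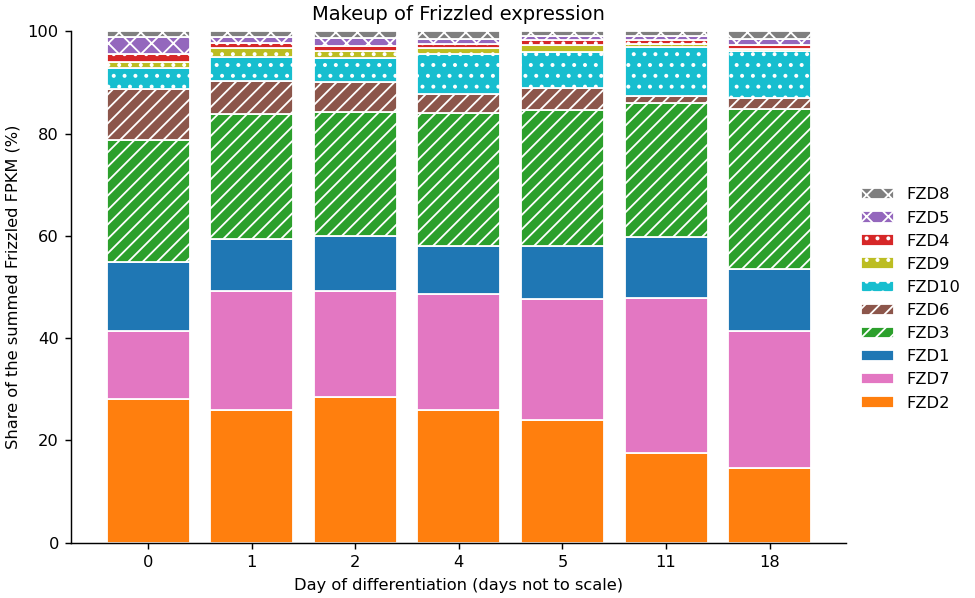
Share of the summed Frizzled FPKM (vertical axis, percent) held by each gene on each day (horizontal axis, days not to scale), with hatching by subfamily. FZD2 narrows from 28.1% to 14.7% and FZD6 from 9.97% to 2.22%, while FZD7, FZD3 and FZD10 widen.

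For 5 of the 10 genes, exons of another record of the tables lie over them on the other strand, and the kit named in the labels is not described as keeping strand, so reads of the 2 records could not be assigned by strand with certainty. The values of FZD4, FZD6, FZD7, FZD8 and FZD10 carry that uncertainty, and those of FZD1, FZD2, FZD3, FZD5 and FZD9 do not. FZD7 lies wholly within exons of the lincRNA record linc-FZD7-AS, which measured 1.51 FPKM on day 0, 3.93 on day 11 and 1.67 on day 18, with its highest day the same as that of FZD7. FZD10 lies over 95.5% of its exon length within linc-FZD10-AS, which measured 3.92, 6.57, 5.39, 7.84, 6.22, 8.36 and 4.78 FPKM and was also highest on day 11. It stood above FZD10 on day 1 and below it on the other days. FZD6 lies over 99.9% of its exons within linc-BAALC-AS, which went from 3.63 FPKM on day 0 to 0.713 on day 18, 5.09-fold lower. FZD4 shares 1399 of its 7382 exon bases with PRSS23, a serine protease gene with far higher values, 184.2 FPKM on day 0 and 18.2 on day 18, which was 10.1-fold lower where FZD4 was 3.54-fold lower. FZD8 lies over 99.4% of its exons within linc-FZD8-AS, whose values did not exceed 0.0410 FPKM. How far shared reads entered these values was not tested. Among the 5 genes with no such overlap, 4 were at least 2-fold lower on day 18 than on day 0, against 29.9% of all records, and after subtracting the median 3 were, without FZD1, against 12.1%. The log2 ratio of the summed FPKM of the 5 was -1.08.

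**Figure D5:**
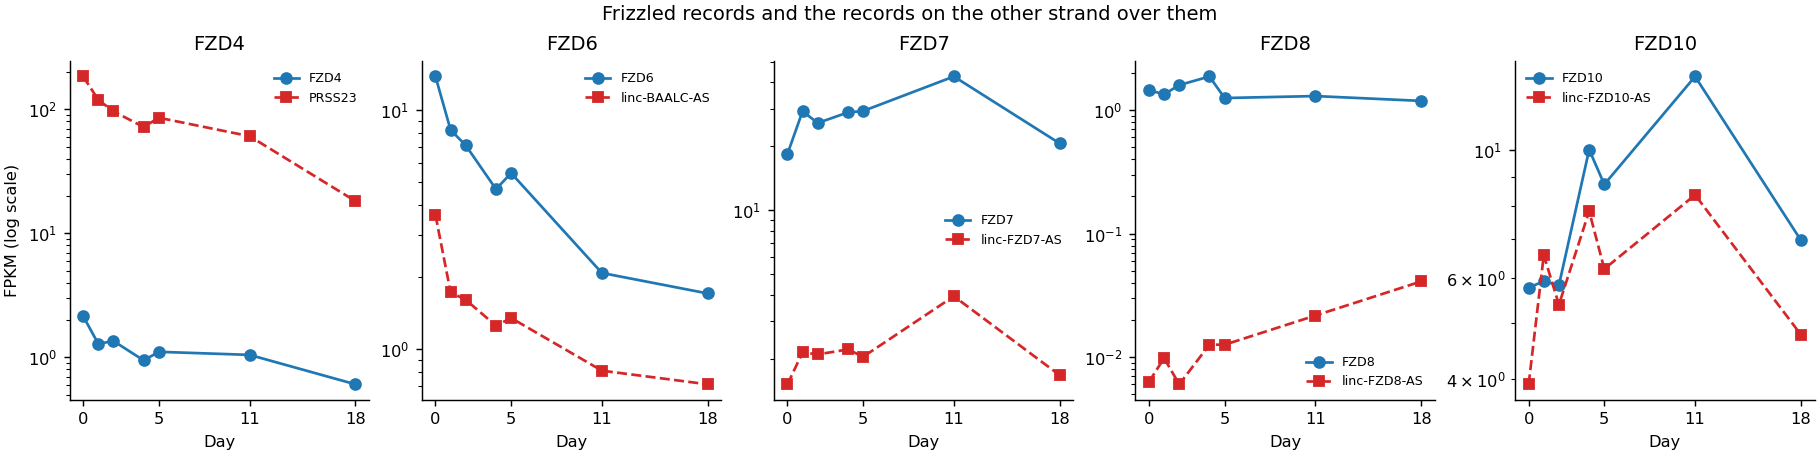
FPKM (vertical axis, log scale, separate per panel) of 5 Frizzled genes (circles) and of the record with exons over them on the other strand (squares) by day (horizontal axis). FZD7 and FZD10 and their antisense records are highest on day 11, PRSS23 lies far above FZD4, and linc-FZD8-AS lies far below FZD8.

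The members with the most similar time courses came from different subfamilies. Over the 7 days, which share the scaling of each day, the Pearson correlation of log2(FPKM + 0.1) between members was highest for FZD2 and FZD9 at 0.91, FZD4 and FZD5 at 0.90 and FZD4 and FZD6 at 0.89. It was lowest for FZD6 and FZD10, at -0.63. The 8 pairs within subfamilies lay between -0.41 and 0.68 with a median of 0.22, and the 37 other pairs had a median of 0.52. From each day the median log2 change of the expressed coding records since day 0 was then subtracted. The 2 medians were then -0.30 and 0.12. The highest pair was FZD3 and FZD10 at 0.93, which stood at 0.53 as deposited, and the lowest was again FZD6 and FZD10, at -0.89. FZD7 and FZD10 were at 0.77 as deposited and at 0.85 after subtracting the median. These correlations rest on 7 points each and are given as descriptions.

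Among the 11249 expressed coding records with a single symbol, the courses most like that of FZD3 included that of LRP6, the Wnt co-receptor, at a Pearson correlation of 0.99 over 7 days, second to PPAPDC1B. LRP6 measured 13.0, 12.4, 12.5, 13.0, 12.9, 13.8 and 10.3 FPKM over the 7 days. For FZD2 the first was REST, the repressor of neuronal genes, at 0.996, with values from 7.68 FPKM on day 0 to 3.11 on day 18. MRPL43 and NAGPA followed. For FZD6 they were TKT, a pentose phosphate enzyme, WDR1, an actin disassembly factor, and the transcription factor RUNX2. For FZD5 they were FASN, the fatty acid synthase, the kinase ABL2 and PTP4A3, and for FZD10 PFKM, a phosphofructokinase, TRIM33 and LRRC4. FZD1 was most like ARID2, FRYL and HRSP12, FZD4 like CCDC134, HNRNPH1 and ATAD3B, FZD7 like MBTD1, BTG1 and ZNF609, FZD8 like MTERFD2, IRF2BP1 and LSM14B, and FZD9 like GMPPA, PPP2R5A and HLA-DMA. With a rank correlation in place of Pearson's, no more than 1 of the 3 names was kept for any member. The names are the top 3 of 11249 records over 7 days that share the scaling of each day, so a high value alone does not set a name apart.

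The genes that act with Frizzled receptors are given from lists by role, as day 18 against day 0 and against the same 29.9% lower and 7.57% higher among all records. Of the 20 ligands listed, the 19 Wnt genes and NDP, which encodes Norrin, 6 were expressed at a mean of 1 FPKM or more, of which 2 were at least 2-fold higher and 2 lower. WNT7B, a ligand made by neurons and epithelia, measured 3.71, 6.18, 5.83, 8.45, 8.86, 17.8 and 31.7 FPKM over the 7 days and was the highest ligand on average. WNT7A went from 0.757 to 4.54 FPKM, WNT2B from 3.30 to 1.15 and WNT9A from 0.704 to 0.253. The summed FPKM of the ligand list was 27.4 on day 0 and 52.1 on day 18. Without WNT7B the sum did not rise between these days, although WNT7A was also higher on day 18. The other 19 ligands summed to 23.6 on day 0, 30.4 on day 4 and 20.4 on day 18, their lowest.

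Of 10 co-receptors and partner receptors at that level, 6 were at least 2-fold lower and none higher. ROR2, a receptor kinase for WNT5A, went from 3.83 to 0.146 FPKM, the glypican GPC3 from 13.4 to 2.16, the glypican GPC4, the highest of the list, from 187.3 to 39.0, and RECK, a partner of WNT7 signalling, from 6.49 to 1.70. The R-spondin and Frizzled turnover list had 2 genes at that level and neither passed 2-fold. The higher was LGR4, a receptor for R-spondins, with 20.7 FPKM on day 0, 34.1 on day 11 and 16.5 on day 18. Of 6 secreted inhibitors at that level 2 were lower, SFRP1 from 45.8 to 11.8 FPKM and DKK2 from 4.26 to 0.348, while SFRP2, the highest, stood at 109.5 and 82.7.

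Of the 13 cytoplasmic transducers, 3 were at least 2-fold lower and none higher. They were the merged record of TCF7 with TCF7L2, from 2.94 to 0.849 FPKM, TCF7L2 itself, from 27.1 to 9.06, and CTNNB1, which encodes beta-catenin and was the highest, from 245.3 to 113.4. After subtracting the median CTNNB1 stood at -0.51. Of 8 listed beta-catenin targets at that level, TNFRSF19 was higher, from 1.54 to 4.65 FPKM, and MYC and CCND1 were lower, from 16.0 to 6.61 and from 75.3 to 35.5. Of 11 planar cell polarity genes 3 were lower and 1 higher. PRICKLE2 went from 2.27 to 7.48 FPKM, VANGL1 from 2.73 to 0.930, FUZ from 8.75 to 4.27 and the record that merges PRICKLE1 with RILP from 10.1 to 3.45, while VANGL2, the highest, stood at 46.4 and 54.5. The median log2 change of that list was -0.0025, beside -0.60 for all records. After subtracting the median of all records, 12.1% of them were at least 2-fold lower and 14.7% at least 2-fold higher. On that scale 4 of the 10 co-receptors and partner receptors were still past 2-fold lower. So were 2 of the 6 inhibitors and 1 of the 13 transducers. No ligand, target or polarity gene was, so WNT2B, WNT9A, CTNNB1, TCF7L2, MYC, CCND1, VANGL1, FUZ and the PRICKLE1 record lay within 2-fold on that scale. WNT7A, WNT7B, TNFRSF19 and PRICKLE2 were past 2-fold higher on both scales. The inhibitor DKK3, the transducer APC and the polarity gene DAAM1 were past 2-fold higher only after subtracting the median, at 1.23, 1.46 and 1.01, and were named for that after their values were seen.

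Cell type markers are given from lists in the same way, as day 18 against day 0. Among all expressed coding records 29.9% were at least 2-fold lower and 7.57% at least 2-fold higher as deposited. After subtracting the median these shares were 12.1% and 14.7%. The cultures carried progenitor markers throughout, with all 9 expressed, and their summed FPKM was between 2081 and 4768, most of it VIM. From day 0 to day 18 HES5 and PAX6 were at least 2-fold higher, NES was at least 2-fold lower as deposited, and the other 6 were neither. Of the 9 neuron markers 7 were at least 2-fold higher on day 18, on both scales, and the sum of the 9 went from 513.4 to 1373. NEFL was at least 2-fold lower as deposited, from 153.2 to 68.1 FPKM. GAP43 passed 2-fold in neither direction, at 192.7 FPKM on day 0 and 173.4 on day 18. All 6 proliferation markers were at least 2-fold lower, also on both scales, with a sum of 614.3 on day 0, 341.7 on day 1 and 125.3 on day 18. Of the 9 neural crest or mesenchyme markers, 4 of the 5 expressed were lower, 3 of them also after subtracting the median, and the sum went from 291.2 to 39.8, most of it COL3A1. The other expressed marker, TFAP2A, was higher, from 0.0415 to 2.67 FPKM, while COL1A1 was listed at 0 on every day and SOX10 did not exceed a mean of 0.0615. Of 6 astrocyte markers 3 reached a mean FPKM of 1, with GFAP and ALDH1L1 at means of 0.0646 and 0.0195. Of 6 oligodendrocyte lineage markers 2 did, of which the PDGFRA record is merged with FIP1L1, with OLIG1 and OLIG2 at 0.0965 and 0.0560. Of 5 pluripotent markers with a record 1 did, DPPA4, with POU5F1 and NANOG at 0.0620 and 0.0106. In these bulk samples fewer cells of a type and less RNA per cell cannot be told apart, and the part of these shifts in the Frizzled values was not tested.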

How the data were processed

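Polyadenylated RNA of 20 H1-derived cultures was sequenced by the study on 7 days, and samples were grouped by the day in their titles. Per the labels and the study's methods, the authors aligned reads to hg19 with TopHat2 and estimated FPKM with Cuffdiff2 on a catalogue of coding and lincRNA records. The deposited FPKM table holds 1 value per record and day, pooled over cultures, which hides the spread between cultures. Columns of single samples numbered 0, and the depth is unknown, so no interval, detection limit or test was computed here. The authors' table of adjacent-day comparisons (tested values, fold changes, statistics, p-values and q-values) was used only for record names and positions, and its tests of the 6 steps were not used.

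Differences were computed on log2(FPKM + 0.1), which understates changes of low genes, and counted at 2-fold among coding records whose mean over the days reached 1 FPKM. From each gene list, at most the 4 genes with the largest change past 2-fold and the gene with the highest mean were named, all members were named, and the 3 records with the highest correlation were named for each member. The members and lists were chosen with earlier results of these data known. Coding sequences came from GENCODE MANE transcripts lifted to hg19, aligned with Biopython 1.88, and promoters from RefSeq on GRCh38.p14. Alternatives were recentring on the median, pseudocounts of 1 and 0.01, a fold of 1.5, other filters and a rank correlation, and scaling to equal totals and leaving out overlapped members were added after seeing the data. The calls and correlations were tested on simulated data. The planted changes were larger than 2-fold, in genes with means above those of FZD4, FZD5, FZD8 and FZD9, and the planted look-alike was an exact multiple of its target. Calls near 2-fold or at low levels were not covered.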

Additional observations from a re-analysis of the deposited data

How the results depend on the processing

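Of 42 counts of members past 2-fold under alternatives, 33 stayed within 1.5 times the value reported. Many of these were counts of 0 that stayed at 0 in the steps from day 1 to day 5, where no member had passed 2-fold. The setting without overlapped members counts over 5 members in place of 10, so its counts are not like for like. From day 0 to day 18 the count was 3 in place of 6 with a pseudocount of 1, where FZD1, FZD4 and FZD9 came to -0.94, -0.97 and -0.91 on the log2 scale. From day 11 to day 18 it was 0 in place of 2 after recentring on the median and 0 after scaling to equal totals, 7 at a fold of 1.5, and 1 among the members with no overlap on the other strand. From day 5 to day 11 it was 1 in place of 2 with a pseudocount of 1 and 1 among members without overlap. At a fold of 1.5 it was 4 in place of 1 for day 1 against day 0, and 2 in place of 0 for day 4 against day 2. The share of all records past 1.5-fold was not computed, so no count at that fold, the 7 included, can be set against it. Over the whole course FZD3 changed sign to 0.15 after recentring and 0.27 with equal totals, FZD8 to 0.33 and 0.40, and FZD1 came to -0.41 and -0.29. The log2 ratio of the summed FPKM, -0.85, was -1.08 without the overlapped members, -0.995 without FZD3, -0.25 after recentring and -0.13 with equal totals. Scaling to equal totals and leaving out overlapped members were chosen after seeing the data. The other pseudocount, 0.01, changed no call. Summing all records of a symbol could not change a value, because each symbol had a single coding record. Without a filter on the mean, or with a minimum of 0.1, 10 of 14 background shares stayed within 1.5 times. No paired analysis was possible because each day holds 1 pooled value, and for the same reason no culture could be left out. The unknown depth limits the low values of FZD4, FZD5, FZD8 and FZD9 most.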

Other observations

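The tables hold 13 lincRNA records named after a Frizzled gene, for 5 members, and 3 of them had a mean FPKM of at least 1. They were chosen after their values were seen. Besides linc-FZD7-AS and linc-FZD10-AS, the third was linc-FZD8-5, a record at chr10:37283969-37284480 on the minus strand of hg19, 1353607 bases from FZD8 in spite of its name. It measured 47.4, 31.1, 29.3, 34.5, 34.8, 35.1 and 27.2 FPKM on the 7 sampled days in order, above FZD8 on every day. Its exons span 302 bases. The other records lay lower. Near FZD4, linc-FZD4-BP, which starts 228 bases from the FZD4 record on the other strand, measured 0.359 FPKM on day 0 and 0.0701 on day 18. Upstream of FZD10, linc-FZD10-1 measured 0.738 FPKM on day 0, 1.66 on day 11 and 0.756 on day 18, with its highest day the same as that of FZD10 and linc-FZD10-AS. Its span lies within that of linc-FZD10-AS on the other strand, and how far these records share reads was not tested.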
